A study of Homo sapiens with 3 samples.

Results

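The 10 neural SOX genes SOX1, SOX2, SOX3, SOX4, SOX5, SOX6, SOX9, SOX11, SOX12 and SOX21 were examined in a map of open chromatin from human neurons. They are 10 of 20037 protein-coding genes on the main chromosomes. Their accessible regions were all intervals of the map with a summit inside the gene or within 50 kb of its outer ends, and 200 kb was used as a wider view. The 50 kb windows held 103 of the 65234 distinct regions of the map, made of 251 of its 145092 summit entries, and the 200 kb windows held 178. The map comes from ATAC-seq, in which the Tn5 transposase inserts adapters into accessible DNA, so that open sequence collects more sequenced tags than its surroundings. The cells were neurons of KOLF2.1J-hNGN2, an established induced pluripotent stem cell line carrying the neurogenic factor NGN2, after 14 days of differentiation. There were 3 biological replicates and no other group, so every cell studied shares the line, the factor and the day. The authors combined the replicates in 1 list, and no value or depth per replicate was analysed here. No spread between replicates can therefore be given, no test between conditions was possible, and all comparisons are between genes within this list.

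SOX proteins bind DNA through an HMG box, a domain that fits into the minor groove and bends the helix, and they usually act with a partner factor on the same element. The SOXB1 proteins SOX1, SOX2 and SOX3 hold neural progenitors undifferentiated, and SOX21, of the SOXB2 group, is a repressor that counters them. SOX9, of the SOXE group, marks radial glia and astrocyte precursors. The SOXC proteins SOX4 and SOX11 rise as progenitors leave the cycle and switch on neuronal genes, and SOX12 is the third and weaker SOXC activator. SOX5 and SOX6, of the SOXD group, lack a transactivation domain of their own and pattern cortical neuron and interneuron subtypes.

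Promoter sequences show what lies under the summits of these genes. A RefSeq table for GRCh38.p14 held 8 of the 10 members, and the entries for SOX9 and SOX11 were not in it. In all 8 the 250 bases before the gene start were covered whole by an accessible region, against 63.2% of 15843 protein-coding promoters. A summit lay within these 250 bases in 6 of the 8, against 56.3% of the promoters. Of the 6, the 5 promoters in which that summit was the strongest of its region are printed first, and SOX5 is added for its matches to the SOX core. Each is read along the gene's strand and ends at the base before the start. Capitals mark ACAAT, the core that SOX proteins recognise, CCAAT, the box bound by NF-Y, and GGGCGG, the GC box bound by SP1, each on either strand. ACAATG and ACAATGG contain ACAAT.
SOX2 (chr3:181711675-181711924, plus strand): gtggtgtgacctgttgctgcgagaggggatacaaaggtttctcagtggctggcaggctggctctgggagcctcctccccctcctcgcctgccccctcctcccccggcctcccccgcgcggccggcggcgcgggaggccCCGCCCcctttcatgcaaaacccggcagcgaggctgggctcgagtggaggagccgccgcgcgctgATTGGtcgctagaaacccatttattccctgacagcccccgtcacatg
SOX3 (chrX:140505070-140505319, minus strand): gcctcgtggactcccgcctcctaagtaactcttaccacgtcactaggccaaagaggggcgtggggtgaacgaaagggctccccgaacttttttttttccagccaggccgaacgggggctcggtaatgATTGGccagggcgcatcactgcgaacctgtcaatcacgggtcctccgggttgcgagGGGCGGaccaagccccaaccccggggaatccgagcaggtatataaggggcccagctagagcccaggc
SOX4 (chr6:21593501-21593750, plus strand): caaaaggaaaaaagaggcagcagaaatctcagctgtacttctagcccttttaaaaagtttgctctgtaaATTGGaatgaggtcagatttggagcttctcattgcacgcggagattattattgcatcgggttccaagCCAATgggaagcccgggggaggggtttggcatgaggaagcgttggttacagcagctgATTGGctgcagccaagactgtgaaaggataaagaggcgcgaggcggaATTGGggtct
SOX12 (chr20:325302-325551, plus strand): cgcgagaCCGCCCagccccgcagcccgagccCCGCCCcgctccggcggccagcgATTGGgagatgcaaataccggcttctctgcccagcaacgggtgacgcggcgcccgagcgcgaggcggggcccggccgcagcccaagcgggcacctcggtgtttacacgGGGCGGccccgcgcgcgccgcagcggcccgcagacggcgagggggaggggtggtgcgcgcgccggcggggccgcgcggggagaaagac
SOX6 (chr11:16738478-16738727, minus strand): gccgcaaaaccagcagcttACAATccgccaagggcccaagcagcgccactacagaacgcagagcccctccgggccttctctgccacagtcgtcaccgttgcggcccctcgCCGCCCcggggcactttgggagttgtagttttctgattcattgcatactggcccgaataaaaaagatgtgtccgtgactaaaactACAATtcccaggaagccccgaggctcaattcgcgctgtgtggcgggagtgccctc
SOX5 (chr12:24562492-24562741, minus strand): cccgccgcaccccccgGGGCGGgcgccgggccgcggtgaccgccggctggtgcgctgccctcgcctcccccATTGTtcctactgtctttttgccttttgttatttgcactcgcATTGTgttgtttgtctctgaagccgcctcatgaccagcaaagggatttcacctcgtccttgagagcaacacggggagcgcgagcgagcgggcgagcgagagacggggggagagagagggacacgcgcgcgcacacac

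The SOX4 promoter held 4 copies of CCAAT, beginning 181, 114, 57 and 10 bases before the start, and its summit lay 62 bases before the start. At least 4 copies in 250 bases were found in 1.16% of the promoters. A CCAAT box was present in 5 of the 8 members, against 34.5% of all promoters, and the other 4 members with it (SOX2, SOX3, SOX21 and SOX12) held 1 copy each. GGGCGG was found in 5 of 8 members, against 56% of promoters. SOX12 held 3 copies, which 19.7% of promoters match or exceed, while SOX4 held none. ACAAT was found in 2 of 8 members, SOX5 and SOX6, with 2 copies each, against 18.8% of promoters with at least 1 copy and 3.69% with at least 2. In SOX5 the copy beginning 179 bases before the start was part of the longer ACAATGG, which 1.89% of promoters contain. The SOXB1 and SOXC promoters in the table had no ACAAT in these 250 bases, and sequence further away was not searched. CAGATG, an E-box form that neurogenic bHLH factors such as NGN2 bind, occurred only in SOX21 among the 8 members, 41 bases before the start, against 9.84% of all promoters. TATAAA was likewise found only in SOX21, on the opposite strand and 146 bases before the start, against 9.23% of all promoters on either strand. Variants such as the tatataag printed for SOX3 were not counted. The promoters differed widely in composition. GC content was 48.8% in SOX4, percentile 17.9 of all promoters, and 82% in SOX1, percentile 98.0, with a median over the 8 of 63.6%, against 62.4% over all. A match of letters is a description of the sequence and not evidence of binding.

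An accessible gene end was found for all 10 members. A region was counted at an end when a summit lay within 1 kb of the outer end of the gene, which held for 10 of 10 members and for 68.8% of protein-coding genes. For the 8 members with a known start site the open end was the start in 8 of 8, against 70.1% of genes in the promoter table. SOX1 alone was open at both ends. Strength was read in 2 ways. Fold enrichment is the authors' ratio of the tags at a summit to a background level that varies along the genome and is 29.2 tags at its lowest. The tag count, recovered from that ratio and the deposited p-value, is the number of tags at the summit in the pooled samples, and its intervals are exact Poisson 95% intervals. The libraries were amplified by PCR and no molecular identifiers are described, so these intervals cover counting error only. A summit may be open in a few cells or weakly open in many, and the list cannot tell these apart.

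The 2 measures placed the members on opposite sides of other gene ends. By fold enrichment only SOX6 stood above the median of 8.58 over 16806 regions at gene ends, 1 of 10 members against 50.0% by definition. By tag count 9 of 10 stood above the median of 663 tags, again against 50.0%. The 16806 regions lie at either end of any annotated gene, coding or not, and include weaker regions at the same end. The members are coding genes and each is given by its strongest region, so the 50.0% is not a share of coding gene starts. The exception was SOX3, which is on X, and tags were not adjusted for chromosome copies. The background level follows from the 2 measures by arithmetic, since it was recovered from the tag count and the fold enrichment. It is therefore not a separate measurement. It ran from 114.6 tags at SOX3 to 297.2 at SOX12, between percentiles 77.6 and 99.6 of regions at gene ends, whose median was 74.1. How the authors computed the background is not given in the sources used here, and why it was high at these genes was not tested.

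**Figure D1:**
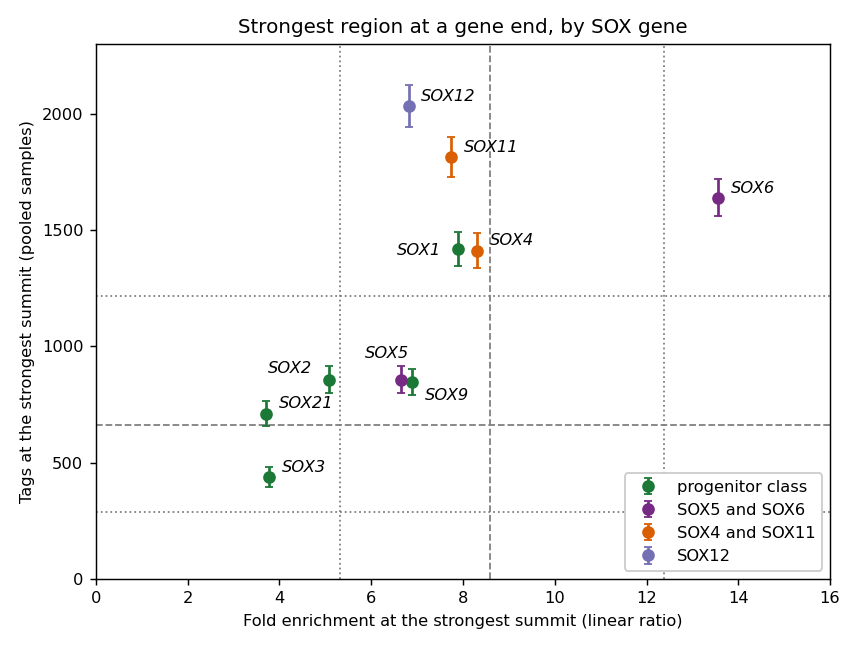
Strongest region at a gene end for each of the 10 genes, with fold enrichment on the horizontal axis and tags at the summit in the pooled samples on the vertical axis. Bars are exact Poisson 95% intervals, and dashed and dotted lines are the median and quartiles of 16806 regions at ends of any annotated gene. SOX6 is the only gene to the right of the dashed vertical line, and SOX3, at 436 tags, is the only one under the dashed horizontal line.

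Among the progenitor genes SOX1 had the strongest start. Its start region had a fold enrichment of 7.89 and 1417 tags (interval 1344 to 1493), with 1 summit 345 bases before the start. SOX2, the SOXB1 factor shared by pluripotent and neural stem cells, had 856 tags (interval 800 to 915) and a fold enrichment of 5.08, at percentile 59.8 of gene ends by tags and 22.9 by enrichment. For SOX9 the values were 845 tags (interval 789 to 904) and 6.89, which the counting error does not separate from SOX2 in tags. The SOX9 summit lay 47 bases outside the gene and within 1 kb of the end of SOX9-AS1, so the region cannot be assigned to either gene alone.

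SOX21 and SOX3 had the weakest starts by fold enrichment. At SOX21 the strongest summit was not at the start but 924 bases before it, inside the antisense gene SOX21-AS1, with 710 tags (interval 659 to 764) and a fold enrichment of 3.71. The summit nearest to the start, 92 bases before it, had 607 tags over a background of 255.0 tags. SOX3, the X-linked member, had 436 tags (interval 396 to 479) and a fold enrichment of 3.78, percentile 36.7 of gene ends by tags and 10.8 by enrichment. The list also held a region at SRY on Y, with 211 tags. The part of chromosome copy number in the SOX3 count was not tested.

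The SOXC genes had high starts by tags. SOX4 had 1411 tags (interval 1338 to 1487) and a fold enrichment of 8.32, SOX11 had 1813 tags (interval 1730 to 1898) and 7.74, and SOX12 had 2032 tags (interval 1945 to 2122) and 6.82. They stood at percentiles 82.0, 91.7 and 94.8 of gene ends by tags. Set beside the 5 progenitor genes, SOX4 and SOX11 exceeded SOX2, SOX3, SOX9 and SOX21 in tags beyond counting error. The tags of SOX3, on X, were not adjusted for chromosome copies. SOX1 lay above SOX4 by 6 tags, within the counting error of both. In fold enrichment SOX4 was above all 5 progenitor genes, and SOX11 was above 4 of them and under SOX1. These are values of single genes in 1 pooled list, so no test of the classes was made. The SOX12 region also lies at an end of NRSN2-AS1 and cannot be assigned to SOX12 alone.

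The SOXD genes differed from each other. SOX6 had 1637 tags (interval 1559 to 1718) and a fold enrichment of 13.6, percentile 83 of gene ends. Its start faces C11orf58, whose nearer end is 0.169 kb away, so this strongest of the member starts by enrichment is shared by 2 coding genes. SOX5 had 855 tags (interval 799 to 914) and a fold enrichment of 6.65.

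Several start regions were broad and held many summits. A width of at least 2 kb was found in 3 of 10, with 2753 bp at SOX5, 2517 bp at SOX3 and 2285 bp at SOX9, against 4.94% of regions at gene ends. SOX2 followed with 1993 bp, and the narrowest was SOX6 with 1263 bp. At least 5 summits were recorded in 6 of 10, against 14.0% of regions at gene ends. Both shares are again over regions at ends of any annotated gene, not over the strongest region of each coding gene. SOX5 had 9 summits, from 295 bases after the start in the promoter table to 1673 before it, and 7 of them lay before it. SOX3 had 7, on either side of the start, of which the strongest was 49 bases before it and the 6 others had 202 to 349 tags. At SOX2 all 5 summits lay before the start, the farthest 1711 bases away with 297 tags. SOX11 had 4 summits within 883 bases outside its end with 998 to 1813 tags each, and 1 inside with 334 tags. At SOX4 the strongest summit stood apart, since the 2 others, 488 and 936 bases into the gene, had 249 and 219 tags.

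**Figure D2:**
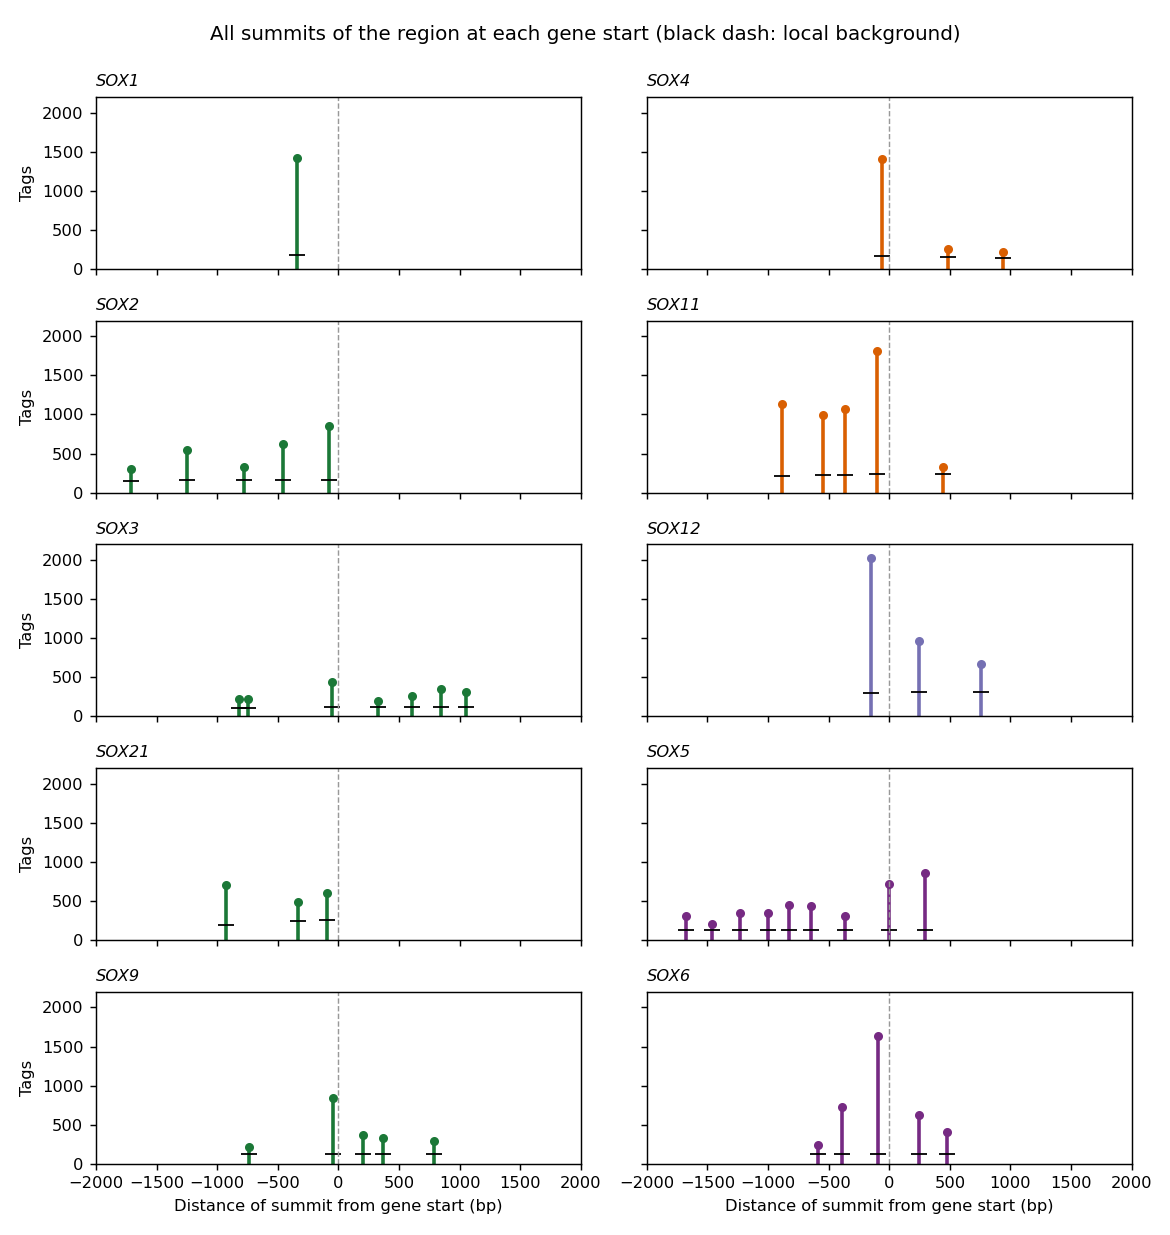
Every summit of the region at each gene start, with distance from the start in bases (negative before the start) on the horizontal axis and tags in the pooled samples on the vertical axis. The start is the lower-coordinate end for SOX9 and SOX11, black dashes are local backgrounds, and the SOX1 region at the other end of the gene is outside the plotted range. SOX4 and SOX1 have 1 tall summit, while SOX5 and SOX3 spread over 9 and 7.

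The surroundings of the genes ran in another order than their starts. SOX4 had 2 regions in its 50 kb window and SOX11 had 3, whereas SOX2 had 11, SOX1 had 7, SOX9 and SOX21 had 5 each and SOX3 had 2. The median of the 5 progenitor genes was 5 and that of all protein-coding genes was also 5. SOX3 thus went with SOX4 and SOX11 and not with its class. Of the 10 members, 7 had at least 5 regions, against 52.2% of protein-coding genes. Because long windows collect more regions, each member was also ranked among genes of similar length. SOX2 stood at percentile 97.8, SOX1 at 79.3, SOX21 at 63.1, SOX9 at 58.3 and SOX3 at 27.3, while SOX4 stood at 20.2 and SOX11 at 32.2. With only regions above the median fold enrichment of the list, 5.60, the counts were 2 for SOX1, 2 for SOX2, 0 for SOX3, 1 for SOX21 and 3 for SOX9, beside 1 for SOX4 and 2 for SOX11, so that most of the separation lay in weaker regions.

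Distal regions, whose strongest summit is over 1 kb from the end of any annotated gene, made up 80 of the 103, or 77.7%, against 74.2% of the whole list. SOX5 and SOX6 held 55 of the 80, and in the other 8 members 25 of 43 regions were distal, or 58.1%. All 10 members had at least 1, against 83.6% of protein-coding genes, and 3 had at least 5 (SOX2, SOX5 and SOX6), against 20.2%. Their median fold enrichment was 5.16, close to the 5.11 of all distal regions of the list. SOX2 had 9 distal regions and SOX1 and SOX9 had 4 each, whereas SOX3, SOX4 and SOX11 had 1 each.

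**Figure D3:**
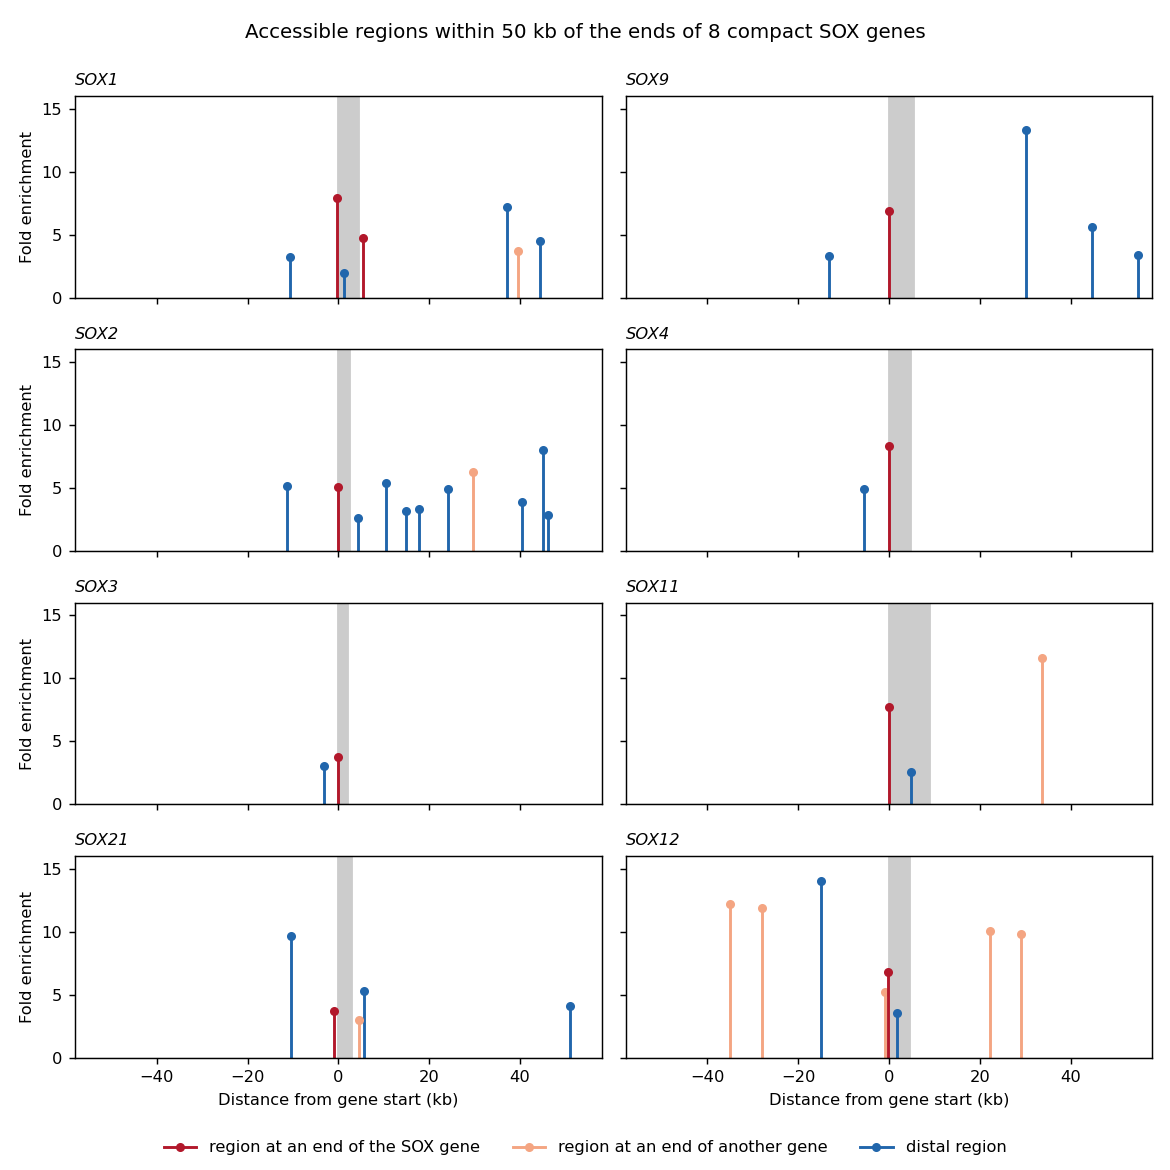
Regions in the 50 kb windows of the 8 compact members, drawn as stems at their distance from the gene start in kb (negative before the start), with fold enrichment as height and the gene in grey. Distances at SOX9 and SOX11 are from the lower-coordinate end. SOX2 carries 9 of its 11 regions after the gene, and SOX4 carries none after its start region.

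Around SOX2 the regions lay mostly on 1 side. SOX2 spans chromosome 3 from 181711925 to 181714436, inside SOX2-OT, a long non-coding gene that overlaps it and contains the summits of 8 of the 11 regions. No region had its strongest summit inside SOX2 itself, 2 lay before the gene and 9 lay after it. The strongest by fold enrichment was distal, from 181756392 to 181757242, 44.9 kb after the start, with a fold enrichment of 8.03 and 557 tags (interval 512 to 605). Next came 181741357 to 181741903 at the end of SOX2-OT, where 188 tags gave a fold enrichment of 6.25. Next in order, 181721904 to 181722654 lay 10.4 kb after the start and had 785 tags at a fold enrichment of 5.38. By tags the start region, with 856 (interval 800 to 915), was still the highest of the window. The interval of the region with 785 tags, 731 to 842, overlaps it. In the 200 kb window the strongest by fold enrichment was 181880039 to 181880969, 168.6 kb after the start, with 298 tags at a fold enrichment of 9.0.

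SOX1 spans chromosome 13 from 112067149 to 112071706 and lies inside SOX1-OT, which contains 6 of its 7 regions. A second region at the gene, from 112072196 to 112073990 just past its far end, had a fold enrichment of 4.74 and 788 tags. Farther out, the region from 112103238 to 112104940, 37.0 kb after the start, had a fold enrichment of 7.22 and 1130 tags, the second highest tag count of the window. The strongest by fold enrichment within 200 kb, 111892804 to 111894514, lay at the end of LINC00354 on the other side of SOX1, with 9.10 and 610 tags. SOX1 and SOX2 thus shared a layout of several regions after the gene within an overlapping transcript, while their values at the start differed.

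SOX9 spans chromosome 17 from 72121020 to 72126416. The strongest of its 5 regions was distal, from 72150961 to 72152130, 30.2 kb above the lower-coordinate end. It had a fold enrichment of 13.3 over a background of only 41.6 tags, and with 565 tags it stayed under the 845 of the start region. Another distal region followed from 72165265 to 72166476, with a fold enrichment of 5.63 and 197 tags.

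SOX21 spans chromosome 13 from 94709622 to 94712545, and its most heavily tagged region was not at its start. The region from 94706207 to 94707829, 5.63 kb past the start and beyond the far end of the gene inside LINC00391, had 2024 tags (interval 1937 to 2114) and a fold enrichment of 5.34 over a background of 378.5 tags. Beside it, 94707968 to 94708635 had 1262 tags over a background of 421.1, at a fold enrichment of 2.99, the lowest of the window. The start region had 710, so the sequence beyond the 3′ end of SOX21 carried more tags than its promoter by more than counting error. By fold enrichment the order changed, and the distal region from 94722390 to 94723590, 10.4 kb before the start, led with 9.64 and 432 tags. The region from 94660731 to 94661921, near the far border of the window, came after these with 4.08 and 220 tags.

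SOX3 spans X from 140502985 to 140505069 and had 1 region beside that at its start, from 140507830 to 140508399, 3.09 kb before it, with a fold enrichment of 3.05 and 322 tags. In the wider view the region 140439149 to 140440091, 65.4 kb after the start, had 500 tags at a fold enrichment of 12.1. Its fold enrichment was above that of the start region, while the tag intervals of the 2 regions, 457 to 546 and 396 to 479, overlap.

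SOX4 spans chromosome 6 from 21593751 to 21598619. Its second region was wide, at 2530 bp with 7 summits, and lay 5.52 kb before the start from 21587028 to 21589557, with a fold enrichment of 4.88 and 572 tags (interval 526 to 621). In the 200 kb window SOX4 rose to 12 regions, of which 7 lay inside CASC15, a long non-coding gene after SOX4. The strongest of those, from 21741257 to 21741893, was 147.7 kb after the start with a fold enrichment of 8.98 and 425 tags. SOX11 spans chromosome 2 from 5692384 to 5701385. Its strongest neighbour by fold enrichment, 11.6 with 780 tags, lay 33.7 kb above the lower-coordinate end from 5725601 to 5726730 and at an end of LOC112268411. Inside SOX11, the region 5696734 to 5697575 had 406 tags at a fold enrichment of 2.60. In the 200 kb window SOX11 had 6 regions and SOX3 had 5, the fewest of the members.

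SOX12, on chromosome 20 from 325552 to 330224, differed from the other compact members in its neighbourhood. Of its 8 regions only 2 were distal, and only 3 had SOX12 as the nearest coding gene, since C20orf96, ZCCHC3 and NRSN2 lie within 50 kb. The strongest was distal, from 309548 to 310929, 15 kb before the start, with a fold enrichment of 14.1 and 1972 tags (interval 1886 to 2061). It lay between ZCCHC3 and SOX12, and the list does not say which gene, if any, it serves. Next came 289922 to 290903 at the end of C20orf96, with 12.2 and 813 tags, and 297134 to 298573 at the end of ZCCHC3, with 11.9 and 1137 tags.

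**Figure D4:**
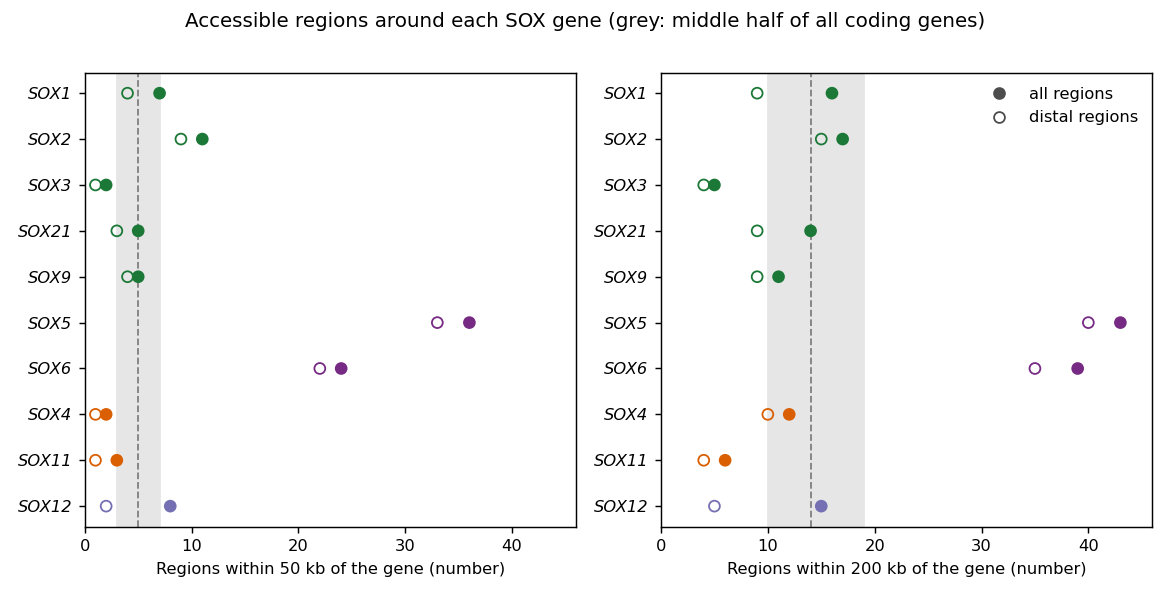
Number of regions (filled) and distal regions (open) within 50 kb and 200 kb of each gene, 1 row per gene. The grey band covers the middle quartiles of all protein-coding genes, 3 to 7 regions at 50 kb and 10 to 19 at 200 kb, and the dashed line is their median, 5 and 14. At 50 kb SOX3 and SOX4, with 2 each, lie left of the band and SOX11, with 3, on its edge, and at 200 kb SOX4, with 12, lies within it while SOX3, with 5, and SOX11, with 6, lie left of it.

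SOX5 and SOX6 are long genes with many regions inside them. SOX5 spans 1033 kb of chromosome 12, from 23529504 to 24562650, and all 36 regions of its window lay inside the gene, 33 of them distal. That is 3.48 regions per 100 kb of gene, percentile 92.9 of 315 coding genes of at least 500 kb, whose median was 2.00. SOX6 spans 772.0 kb of chromosome 11, from 15966449 to 16738477. Its 21 regions with a summit in the gene, the start region included, amount to 2.72 per 100 kb, percentile 76.7. Ranked by regions in the window among genes of nearest length, SOX5 stood at percentile 93.5 and SOX6 at 79.7.

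The strongest region within SOX5 was distal, from 23895614 to 23896441, 666.5 kb after the start, with a fold enrichment of 15.8, the highest of all 103 regions. It had 909 tags (interval 851 to 970), more than the 855 at the start, with intervals that overlap. The next were 24500276 to 24501411, 61.8 kb after the start, at 10.6 with 524 tags, and 23600595 to 23601475 at 10.0 with 389 tags. Of the 36 regions with a summit in SOX5, 8 reached a fold enrichment of at least 9. In SOX6 this held for 5 of 21. Those of SOX6 include the start region shared with C11orf58, whose strongest summit lies outside SOX6. The lowest of these in SOX5 and SOX6, at 9.37 and 9.06, stood at percentiles 90.7 and 89.3 of distal regions. The share reaching this cutoff was not computed for other long genes or the whole list, so the counts only describe these genes. Summits in SOX5 were spread along the gene, with a largest gap of 74.9 kb and a median gap of 22.6 kb. In SOX6 the largest gap was 201.9 kb, from 133.4 to 335.3 kb after the start, and the median gap was 21.7 kb.

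Just before that gap SOX6 carried 3 regions close together. The strongest, 16612931 to 16614426, lay 124.6 kb after the start inside LOC105376571 and had 841 tags (interval 785 to 900) at a fold enrichment of 11.2. The neighbouring region from 16605494 to 16608212 was 2719 bp wide with 8 summits, as broad as the start regions of SOX5 and SOX3, with 784 tags. The gene table gives only outer ends and 1 start per gene, so it was not tested whether starts of shorter SOX6 transcripts lie there. In SOX6 the third strongest region was 16169642 to 16170828, with a fold enrichment of 10.2 and 347 tags.

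**Figure D5:**
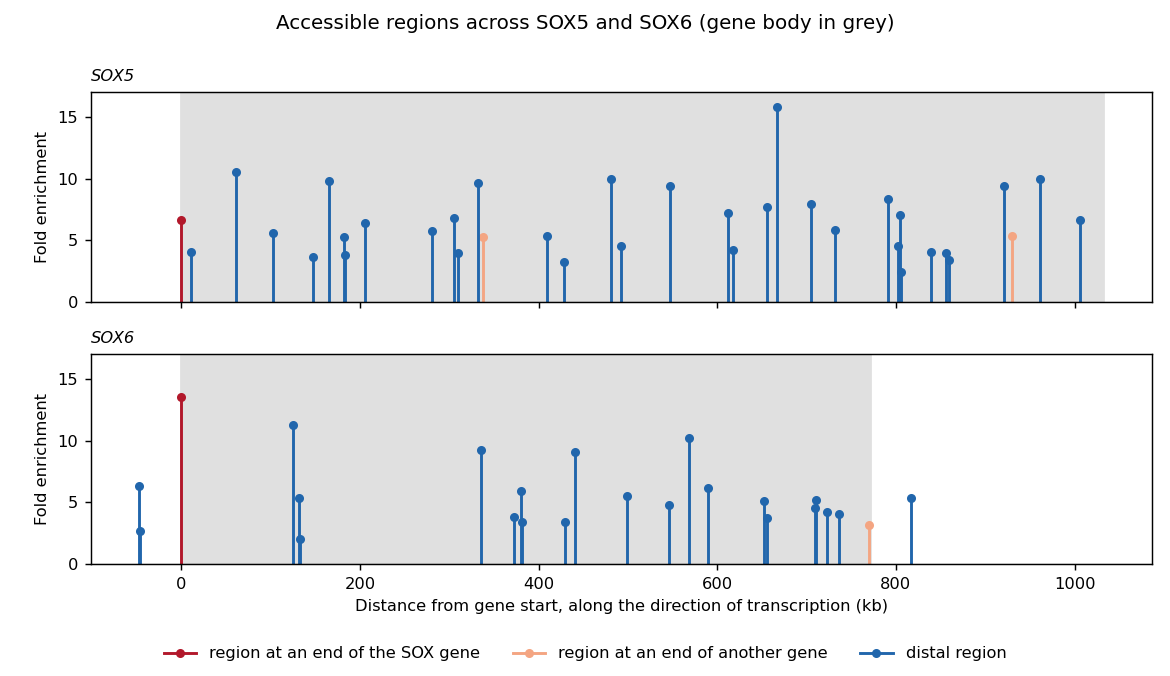
Regions across SOX5 and SOX6, drawn as stems at their distance from the gene start in kb along the direction of transcription, with fold enrichment as height and the gene body in grey. The tallest stem of SOX5 is 666.5 kb after the start at 15.8, and SOX6 has no region between 133.4 and 335.3 kb.

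Most members lie far from other coding genes, so the stretch between the neighbouring coding genes was counted as well. SOX11 lies alone in 2726 kb with 54 regions, SOX9 in 2466 kb with 43 and SOX2 in 1804 kb with 59. Per 100 kb these are 1.98, 1.74 and 3.27 regions, beside a median of 2.03 over 4086 coding genes whose stretch is at least 300 kb. SOX21, SOX2 and SOX1 were the densest, at percentiles 90.8, 86.0 and 85.7. SOX6 stood at 74.4, SOX5 at 68.7, SOX3 at 52.2, SOX11 at 48.2, SOX4 at 43.0 and SOX9 at 39.1. SOX12, whose stretch is 45.9 kb, was not ranked. SOX11 thus had a density close to the median over its whole stretch. Its 3 regions within 50 kb stood at percentile 27.4 and its 6 within 200 kb at percentile 9.28. Those are ranks of counts among all coding genes, an unlike reference, so they cannot be set against the rank of the stretch. Per 100 kb of its 50 kb window SOX11 had 2.75 regions, percentile 41.7 of all coding genes. The strongest regions by fold enrichment in the 200 kb windows of SOX21 and SOX12 lay at the ends of other genes, GPR180 at 15.9 and TBC1D20 at 14.8.

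The other SOX genes were given the same counts. An accessible end was found for 6 of the 10 others, beside 10 of 10 members and the 68.8% of all coding genes. SOX7 and SOX18, both endothelial factors, SOX10, the neural crest and oligodendrocyte factor, and SOX14, the other SOXB2 gene, had none. Where an end was open the tag count was 191 to 603 with a median of 313.5, beside 436 to 2032 with a median of 1133.5 in the members. SOX8, of the SOXE group like SOX9, had 389 tags at a region of 1889 bp, and SOX13, of the SOXD group like SOX5 and SOX6, had 522. SOX17, an endoderm factor, had 238 tags. The members were listed with results of these data known, so this difference describes the 2 lists and is not a test.

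Genes on which SOX proteins act were counted from a list drawn up from textbook knowledge. Of 10 progenitor partners and targets, 9 had an accessible end, and their median number of distal regions within 50 kb was 6, beside 2 over all coding genes and 3.5 over the members. NES, the intermediate filament of neural stem cells and a SOX2 target, had 6, and NOTCH1 and PAX6 had 7 each. The fewest were 2 at POU3F4 and 3 at VIM. POU3F2, POU3F3 and POU3F4, POU partners of SOX proteins, had 1791, 2039 and 706 tags at their ends. POU3F4 is on X, and tags were not adjusted for chromosome copies. Of 6 neuronal targets of SOX4 and SOX11, 6 had an accessible end, with a median of 4.5 distal regions. Both counts of accessible ends stand beside the 68.8% of all coding genes. Distal regions of the neuronal targets ran from 3 to 20, with the most at MAP2, and gene length was not adjusted for in these lists. TUBB3, the neuronal tubulin, had 3 distal regions and 1315 tags at its end. DCX, an X-linked gene for a microtubule protein of young neurons, had 4 and 252.

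The label of the cells was set against markers. Open ends were seen in 6 of 8 pan-neuronal genes, 4 of 5 neural progenitor genes, 1 of 5 pluripotency genes, 3 of 6 glial genes and 0 of 6 non-neural genes, against the 68.8% of all coding genes. Where the promoter table gave a start site, a summit lay within 1 kb of it in 6 of 6 pan-neuronal genes, 4 of 5 neural progenitor genes, 1 of 2 pluripotency genes, 2 of 3 glial genes and 0 of 4 non-neural genes, against the 70.1% of coding promoters. By this second count RBFOX3, ELAVL4, the progenitor gene FABP7 and the pluripotency gene DPPA4 were open, and PAX6 was not. POU5F1 and NANOG, which define pluripotent cells, had no open end, and the start site of NANOG was not open. LIN28A was the pluripotency gene with an open end, at 170 tags. The neural progenitor genes NES, VIM, HES1 and PAX6 had open ends, with 775, 1145, 1286 and 319 tags, beside 436 to 1417 in the 5 progenitor SOX genes. Accessibility does not measure expression, and no RNA was analysed here.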

How the data were processed

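The data are 1 deposited list of ATAC-seq peaks from 3 samples of 1 group, named in the labels as the optimal set by irreproducible discovery rate. The build is hg38, per the submitters' processing notes. The aligner, peak caller and filters are not given in the sources used here. The authors deposited a fold enrichment per summit as a linear ratio, a −log10 p and a −log10 q, a summit offset and a score from 540 to 1000 whose scaling is not stated in the labels. Tag counts were recovered from the deposited ratio, with a pseudocount of 1, and a Poisson upper tail. All 145092 entries gave a whole number within 0.001 units of −log10 p. Entries with equal bounds were merged, and a region takes its values from the summit of greatest −log10 p. Positions count from 1. Genes and promoters came from RefSeq tables for GRCh38.p14. A gene's window counts every region with any summit inside it. The genes of similar length lay within 20% of a member's length, or were the 100 nearest. Percentiles count ties at their midpoint. Motifs outside the ACAAT family were chosen after the promoters had been seen. The members, classes and lists were chosen with earlier results of these data known. The genes and regions named are the members, the regions at their ends, the 3 strongest by fold enrichment in each 50 kb window, the strongest in each 200 kb window, and the listed family, partner and marker genes. Other regions named for width or tag count were chosen after their values were seen. Computations used Python 3.11.15, numpy 2.4.6, scipy 1.17.1 and pandas 2.3.3, and were tested on simulated data.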

Additional observations from a re-analysis of the deposited data

How the results depend on the processing

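No paired analysis was possible because a single pooled list serves the 3 replicates, which also left none to omit in turn. The accessible end of the members held for 10 genes under each alternative except that above the median fold enrichment, with 7. The median number of regions in the 50 kb window, 6, became 2 above the median fold enrichment, 14.5 within 200 kb and 15 as entries. For distal regions the median of 3.5 became 1 above the median fold enrichment, 9 within 200 kb, 2 within 20 kb, 8.5 as entries and 2 with gene ends of 2 kb. The median of the progenitor genes less the mean of SOX4 and SOX11, 2.5 regions, kept its sign under every alternative run, but was 0.5 above the median fold enrichment, 5 within 200 kb, 5 as entries, 4.5 with SOX5 and SOX6 among the progenitor genes and 0.667 with SOX12 beside SOX4 and SOX11. The median percentile of the windows, 64.5, reversed to 34.7 above the median fold enrichment. It was 66.8 with a score of at least 830, 54.6 within 200 kb, 71.6 within 20 kb, 69.2 as entries, 83.9 for regions nearest to the member and 71.2 among genes of similar length. The median percentile of the regions at gene ends, 37.4 by fold enrichment, reversed to 70.9 by tag count. Windows and entries change how much is counted, and the cause of the other changes was not tested.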
